A study of Mus musculus with 6 samples.

Results

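The 8 genes described here (Ptprf, Ptprs, Ptprk, Ptprm, Ptpra, Ptpre, Ptprj and Ptprg) encode receptor-type protein tyrosine phosphatases, and they make up 8 of the 24454 gene rows of the deposited table. They were chosen by name, from a list drawn up with the levels in these same libraries known. The differences of the 8 genes between groups are therefore given as a description, with no test. RNA was sequenced from Py2T cells, a mouse breast cancer line from a mammary tumour, in 6 libraries. The PBS cells had 0 µM H2O2 and were the control, which the labels also call untreated. C40 cells were kept for 4 months on daily doses of 40 µM H2O2, and I60 cells for as long on 60 µM. Each group had 2 libraries, described by the submitters as biological duplicates. Each condition is taken here as 1 cell population, so that drift between the populations and an effect of H2O2 cannot be told apart. Nothing in the sources used here says whether the duplicates were cultured apart over the 4 months, and the spread between them may be technical.

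Receptor tyrosine phosphatases span the cell membrane and remove phosphate from tyrosines of proteins such as cadherin-catenin complexes, growth factor receptors and Src kinases. Their outer parts bind neighbouring cells or the matrix, and their inner parts hold the catalytic domain, often followed by a domain with little activity. Catalysis runs through a cysteine in a short conserved signature, and H2O2 can oxidise that cysteine reversibly, which switches the enzyme off. The libraries measure RNA. Protein amount and the oxidation of the cysteine were not analysed here.

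All 8 genes carry the signature, and it is shown here because this is the site at which H2O2 meets the family. The lines give it for 7 of them, as the coding strand 5′ to 3′ from the longest protein-coding transcript in GENCODE vM21 (GRCm38, the build also named mm10), with the codon of the catalytic cysteine in capitals.
Ptprf: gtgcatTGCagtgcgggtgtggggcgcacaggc
Ptprs: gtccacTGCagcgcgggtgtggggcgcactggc
Ptprk: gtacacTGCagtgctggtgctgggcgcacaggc
Ptpra: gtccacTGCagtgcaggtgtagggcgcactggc
Ptpre: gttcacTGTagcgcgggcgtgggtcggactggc
Ptprj: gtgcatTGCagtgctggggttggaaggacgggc
Ptprg: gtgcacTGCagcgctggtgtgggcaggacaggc
Ptpre uses the codon TGT and the others shown use TGC. A further copy of the signature, in the domain that follows the catalytic one, was found in Ptprf, Ptprs, Ptpra and Ptpre and not in the rest. Counted from the first codon of the reading frame, the catalytic cysteine stands at residue 334 in Ptpre and 433 in Ptpra, the pair with short outer parts. It stands at residue 1539 in Ptprf and 1548 in Ptprs, the pair with the longest. Over a stretch of up to 260 residues around the signature, Ptprf and Ptprs were 84.2% identical, Ptprk and Ptprm 78.0%, and Ptpra and Ptpre 76.4%. All other pairs were between 42.2% and 55.5% identical.

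The libraries held 48113692 to 60260520 reads, so that 1 read was worth 0.0166 to 0.0208 CPM (reads scaled to a common library total). The differences below are on the log2(CPM + 0.5) scale with the standard error (SE) of a limma fit of all 6 libraries. The fit took the 11524 genes that reached 1 CPM in 2 or more libraries, and a gene is said to be called where its adjusted p over all of them was below 0.05. A gene that passed this filter only through the group where it is high could hardly be called in the other direction. Such genes below include Ptpru, Ptpn7 and Gpc4, which passed through I60, and Ptpn18 and Ppfibp2, which passed through PBS. The C40 libraries were less alike than the others: the SD of the log2 difference between the libraries of a group, over genes, was 0.379 in I60, 0.623 in C40 and 0.363 in PBS. The simple-epithelium keratins Krt8 and Krt18 were abundant in every library, at 1059 CPM or more and 1164 CPM or more. Krt7, another keratin of simple epithelium, was called lower in C40 and in I60 against PBS, and in I60 against C40. The same held for the epithelial markers Epcam, Cldn7, Esrp1 and Cdh1. The cadherin Cdh1, by which the labelled epithelial origin can be read, was at 529 and 537 CPM in PBS cells, 59.7 and 87.8 CPM in C40 cells, and 0.187 and 0.129 CPM in I60 cells. Of the markers of other cells, none of 7 endothelial genes passed the filter, and Cd3e, Tyrobp, Lum, Fap and Thy1 were at 0 in every library. The summed level of 8 immune markers was 20.7 and 21.4 CPM in PBS cells, 10.3 and 6.46 CPM in C40 cells, and 30.8 and 39.3 CPM in I60 cells, nearly all of it from Csf1r and Cd68. The summed level of 5 fibroblast markers was 6.76 and 5.86 CPM in PBS cells, 46.5 and 31.3 CPM in C40 cells, and 11.5 and 19.8 CPM in I60 cells. The part of these cells in the results was not tested. Ptprc, the receptor phosphatase that defines blood cells, was at 0.350 CPM or less in each library.

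Among the 7 members that passed the filter, C40 cells had 1 called higher and 1 called lower against PBS cells. Over all genes tested the same comparison called 11.2% higher and 9.02% lower. In I60 against PBS, 1 of the 7 was called higher and 2 lower, and the shares over all genes were 13.9% and 13.1%. In I60 against C40, 1 was called higher and 2 lower, against 3.51% and 5.73% of all genes. Nothing is read from these member counts, since the members were chosen with such differences known. The median difference of the 7 was -0.51 for C40 minus PBS, -0.41 for I60 minus PBS and -0.10 for I60 minus C40, beside -0.02, -0.002 and 0.02 over all genes tested. Ptprm did not pass the filter and has no place in these counts or medians. The gene paragraphs below also say where the libraries of groups do not overlap, which was common among all genes tested. Both C40 libraries lay below both PBS libraries in 31.81% of genes and above them in 30.87%. With I60 in place of C40, 35.15% of genes lay below PBS and 35.47% above. Both I60 libraries lay below both C40 libraries in 24.43% and above them in 24.36%. Lack of overlap alone therefore does not set a gene apart.

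**Figure D1:**
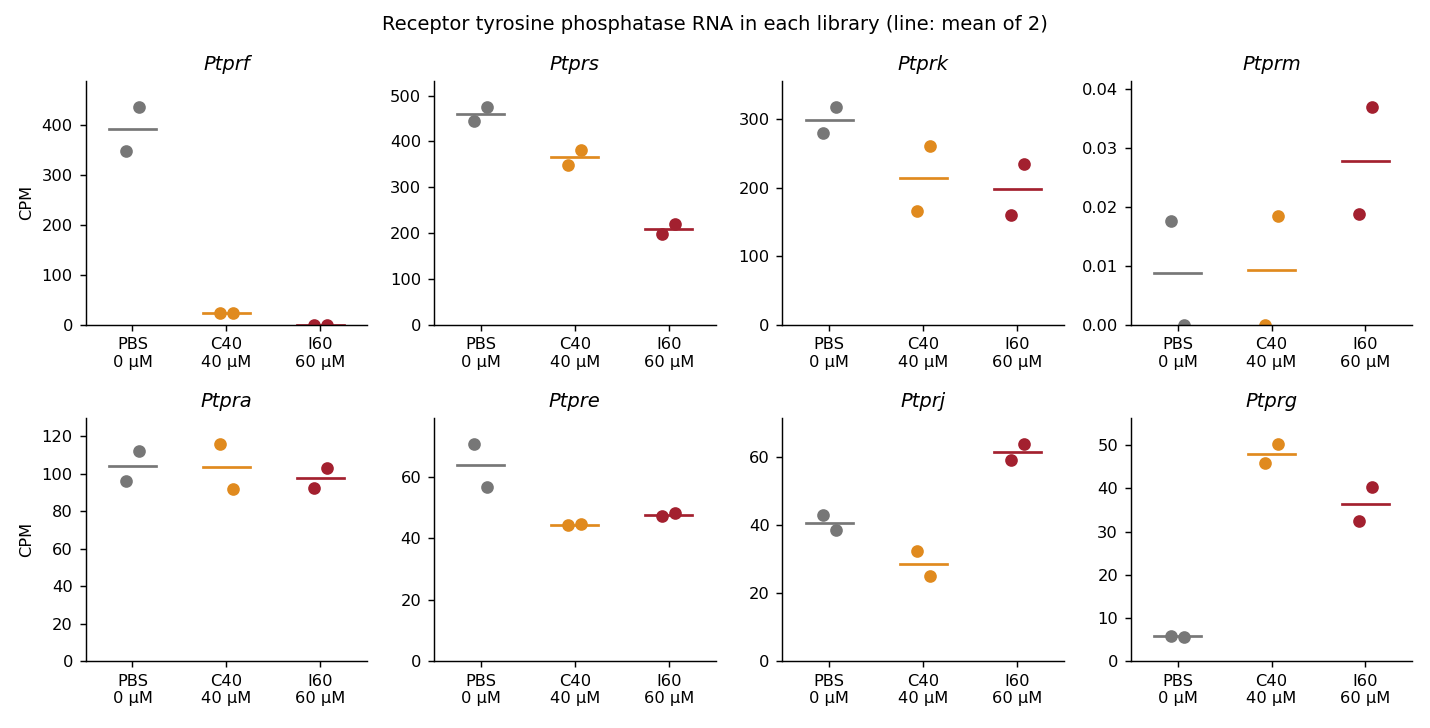
CPM of each of the 8 genes in the 6 libraries, with H2O2 dose on the horizontal axis (0, 40 and 60 µM) and a separate linear vertical axis from 0 for each gene; points are libraries and lines are means of 2. Ptprf is at 22.6 and 22.7 CPM in C40 and at 0 and 0.0737 CPM in I60 libraries, Ptprs is lowest in I60, Ptprg is higher in both H2O2 lines, and Ptprm stays at 2 reads or fewer.

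Ptprf encodes LAR, a receptor of the LAR group (type IIa) that sits at cell-cell and cell-matrix contacts and can dephosphorylate beta-catenin and receptor kinases. It lies on the minus strand of chromosome 4, at chr4:118208213-118291405 (GRCm38). Ptprf was at 349 and 437 CPM in PBS cells, 22.6 and 22.7 CPM in C40 cells, and 0 and 0.0737 CPM in I60 cells. The levels of the 3 lines lie far apart, and the libraries of no pair of groups overlap. In such bulk RNA, fewer cells with the transcript and less of it per cell cannot be told apart. In reads, the I60 libraries held 4 in all, the C40 libraries 2321 and the PBS libraries 46242. Ptprf RNA in C40 cells was 5.77% of its mean CPM in PBS cells, a difference of -4.08 ± 0.23 (log2, SE), and the pooled reads gave a level 17.4-fold lower (exact 95% interval 16.7 to 18.1, for counting error only). In I60 cells the difference from PBS was -9.51 ± 0.23 and rests on the 4 reads and on the pseudocount: it was between -13.38 and -8.56 over 15 other settings. The pooled reads put the I60 level lower than the PBS level by at least 4141-fold, which is the near end of the exact 95% interval of the ratio. I60 cells also had less Ptprf RNA than C40 cells, by -5.43 ± 0.23, and the near end of the interval of the pooled ratio was 237.8-fold. Ptprf was called in all 3 comparisons and under each of the 15 other settings.

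Ptprs encodes PTP sigma, the closest relative of LAR in the set and a receptor for heparan and chondroitin sulfate proteoglycans. It lies on the minus strand at chr17:56412426-56476561. Ptprs was at 445 and 475 CPM in PBS cells, 349 and 382 CPM in C40 cells, and 198 and 219 CPM in I60 cells. The level steps down from PBS to C40 to I60, and no library of a line overlaps those of another. The I60 mean was 45.3% of the PBS mean, a difference of -1.14 ± 0.15 that was called here and under all 15 other settings. The C40 mean was 79.5% of the PBS mean, with a difference of -0.33 ± 0.15 that was not called. Between I60 and C40 the difference was -0.81 ± 0.15 and was called. That call was lost without either I60 library, without either PBS library, and when I60 and C40 alone were fitted, with differences of -0.88 to -0.74. The sequence relatives Ptprf and Ptprs thus had unlike levels in I60 cells. The 4 reads counted for Ptprf in the I60 libraries stand beside 22452 reads counted for Ptprs, so at most 4 reads of Ptprs can have been counted for Ptprf there.

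Ptprk and Ptprm encode PTP kappa and PTP mu, receptors of the type IIb group whose outer parts bind their own kind on a neighbouring cell and which act on catenins at the contact. Ptprk lies on the plus strand at chr10:28074820-28597397, and Ptprm on the minus strand at chr17:66666848-67354491. Ptprk was at 280 and 318 CPM in PBS cells, 167 and 262 CPM in C40 cells, and 161 and 235 CPM in I60 cells. Both H2O2 lines lie below PBS without overlap, and I60 and C40 overlap. Replicate 2 was above replicate 1 in every group, by 0.55 in I60, 0.65 in C40 and 0.18 in PBS on the log2 scale. The differences were -0.51 ± 0.27 for C40 minus PBS, -0.62 ± 0.27 for I60 minus PBS and -0.10 ± 0.27 for I60 minus C40, and none was called. For I60 minus C40 the sign turned without I60 replicate 1 (0.17) or C40 replicate 2 (0.22). Ptprm had 1 and 0 reads in PBS, 0 and 1 in C40, and 1 and 2 in I60 libraries. Each of these is below 3 reads, which equal 0.0498 to 0.0624 CPM depending on the library, and no difference could be detected at that depth. Of the homophilic pair, Ptprk alone was therefore measured.

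Ptpra and Ptpre encode PTP alpha and PTP epsilon, type IV receptors with short, sugar-coated outer parts. PTP alpha activates Src kinases by removing the phosphate of their inhibitory tail, and PTP epsilon can act on Src in mammary tumour cells. Ptpra lies on the plus strand at chr2:130450278-130554300, and Ptpre on the plus strand at chr7:135537824-135686294. Ptpra was at 96.3 and 113 CPM in PBS cells, 116 and 91.8 CPM in C40 cells, and 92.8 and 103 CPM in I60 cells. The 3 lines overlap throughout. Its differences were -0.01 ± 0.19 for C40 minus PBS, -0.09 ± 0.19 for I60 minus PBS and -0.08 ± 0.19 for I60 minus C40, and none was called under any setting. Ptpre was at 70.6 and 56.7 CPM in PBS cells, 44.3 and 44.5 CPM in C40 cells, and 47.2 and 48.0 CPM in I60 cells. Both H2O2 lines lie below PBS without overlap, while the PBS libraries differ from each other by more than those of the other groups do. The differences were -0.51 ± 0.18 for C40 minus PBS, -0.41 ± 0.18 for I60 minus PBS and 0.10 ± 0.18 for I60 minus C40. None was called, although DESeq2 on recovered reads called Ptpre lower in C40 than in PBS (-0.51).

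Ptprj encodes DEP-1 (CD148), a type III receptor with a single phosphatase domain that can dephosphorylate the receptors for PDGF, VEGF and HGF and that binds thrombospondin-1. It lies on the minus strand at chr2:90429756-90580694. Ptprj was at 42.9 and 38.4 CPM in PBS cells, 32.3 and 24.9 CPM in C40 cells, and 58.9 and 63.8 CPM in I60 cells. It was the one member with PBS between the H2O2 lines: C40 lies below and I60 above, with no overlap. The difference of I60 minus C40 was 1.10 ± 0.20 and was called. That call was lost without either I60 library (1.16 and 1.04), without either PBS library, and with I60 and C40 alone in the fit (1.10 in each of these). Against PBS, C40 was at -0.51 ± 0.20 and I60 at 0.59 ± 0.20, and neither was called. The I60 difference was called by DESeq2, with I60 and PBS alone, and without either C40 library, with values of 0.59 in each, and the C40 difference was called without C40 replicate 1 (-0.69).

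Ptprg encodes PTP gamma, a type V receptor with an outer carbonic anhydrase-like domain that binds contactins. It lies on the plus strand at chr14:11553440-12242041. Ptprg was at 5.95 and 5.74 CPM in PBS cells, 45.7 and 50.3 CPM in C40 cells, and 32.5 and 40.3 CPM in I60 cells. Every library of the H2O2 lines lies above every PBS library, and C40 lies above I60 without overlap. The difference was 2.93 ± 0.21 for C40 minus PBS and 2.53 ± 0.21 for I60 minus PBS, and both calls were kept under all 15 other settings. In pooled reads, C40 was 8.24-fold (exact 95% interval 7.61 to 8.94) and I60 6.23-fold (5.74 to 6.77) above PBS, intervals that cover counting error only. I60 minus C40 was -0.40 ± 0.21 and was not called.

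**Figure D2:**
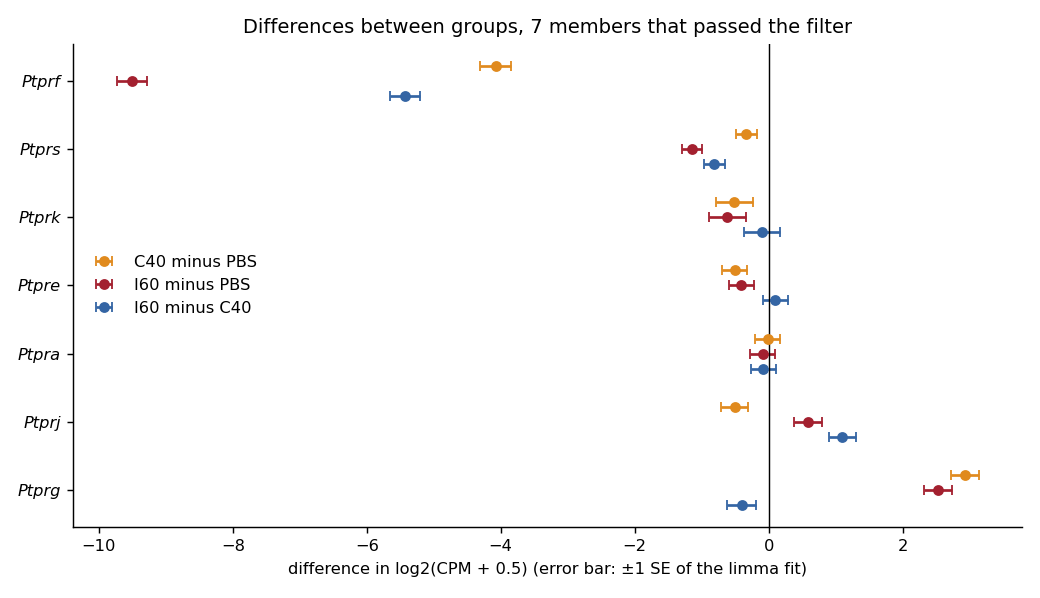
Differences on the log2(CPM + 0.5) scale (horizontal axis) for the 7 members that passed the filter, with ±1 SE of the limma fit, for C40 minus PBS, I60 minus PBS and I60 minus C40. Ptprf lies furthest to the left in all 3 comparisons (-4.08, -9.51 and -5.43), Ptprg to the right in both comparisons with PBS (2.93 and 2.53), and Ptpra at 0 within its error.

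The order of the members changed between the lines. To compare genes, CPM was divided by the length of the longest protein-coding transcript, in kb. In PBS cells the order was Ptprs (67.1 ± 3.02 CPM per kb, SD, n = 2), Ptprf (51.3 ± 8.11) and Ptprk (48.4 ± 4.36), then Ptpra (19.6), Ptpre (11.1), Ptprj (5.33), Ptprg (0.635) and Ptprm. Of these neighbours only Ptprf and Ptprk overlap in their libraries. In C40 cells the order was Ptprs (53.3 ± 3.37 CPM per kb), Ptprk (34.7 ± 10.9) and Ptpra (19.5 ± 3.22), then Ptpre (7.72), Ptprg (5.21), Ptprj (3.75), Ptprf (2.96) and Ptprm, with no overlap between neighbours. In I60 cells Ptprk (32.1 ± 8.55 CPM per kb) and Ptprs (30.4 ± 2.14) overlap at the top, Ptpra (18.4 ± 1.36) follows, Ptpre (8.28) and Ptprj (8.04) overlap, and Ptprg (3.95) comes before Ptprm and Ptprf. With merged exons as the length, a choice added after the data were seen, PBS cells had Ptprf (42.9) above Ptprs (30.7) and Ptprk (22.4), I60 cells had Ptprj (7.34) above Ptpre (4.67), and Ptprg (4.36) and Ptpre (4.35) lay side by side in C40 cells.

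**Figure D3:**
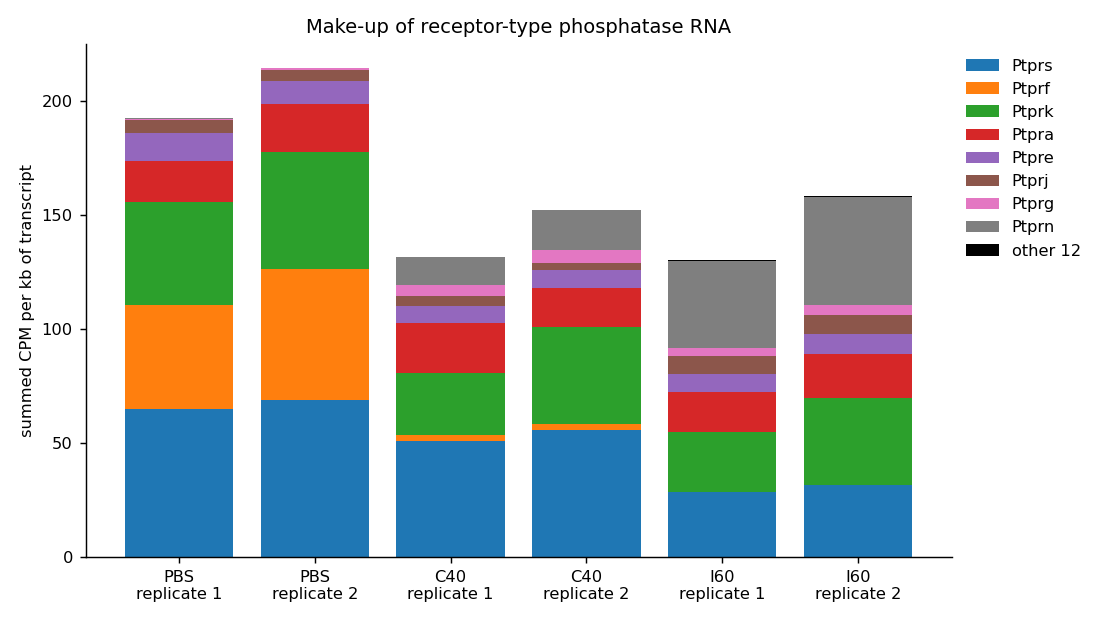
CPM per kb of transcript (vertical axis, from 0), stacked over the receptor-type phosphatase genes other than Ptprv, in each library (horizontal axis). The Ptprf layer fills 25.1% of the PBS columns, 2.09% of the C40 columns and 0.003% of the I60 columns, and the Ptprn layer 0.006%, 10.3% and 29.7%.

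The other 13 receptor-type phosphatase genes of the mouse table set these levels in context. These genes and the lists in later paragraphs were chosen with earlier results of these data known. Their adjusted p-values come from the fit of all genes tested and are no independent support. The summed level of the 21 genes was 1368 ± 107 CPM in PBS, 884 ± 82.9 CPM in C40 and 814 ± 109 CPM in I60 cells (SD, n = 2 each). The 8 members held 99.9% of it in PBS, 93.7% in C40 and 79.9% in I60 cells. In C40 and I60 cells the remainder was mostly Ptprn, which encodes IA-2, a dense-core vesicle protein of neuroendocrine cells with no known catalytic activity. Ptprn was at 0.0525 and 0.0332 CPM in PBS cells (5 reads in all), 42.5 and 61.9 CPM in C40 cells, and 136 and 169 CPM in I60 cells. The lines do not overlap, and the level rises from PBS to C40 to I60. Ptprn rose in C40 and in I60 against PBS (adjusted p from limma = 3.229e-05 and 5.694e-06), and pooled reads put it higher by at least 531-fold in C40 and 1536-fold in I60, the near ends of the exact 95% intervals. Ptprn was also higher in I60 than in C40 (1.56 ± 0.26, adjusted p from limma = 0.0125), a call lost without either I60 library. By share of CPM per kb, Ptprn reached 29.7% of the family in I60 cells, where Ptprs held 21.1% and Ptprk 22.0%. Ptprv has no protein-coding transcript length and is left out of these shares.

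Ptpru, a type IIb relative of Ptprk, was at 0.0875 and 0.133 CPM in PBS cells, 0.914 and 0.718 CPM in C40 cells, and 2.66 and 1.77 CPM in I60 cells. It rose in I60 (2.14 ± 0.26, adjusted p from limma = 0.001092) and in C40 (1.11 ± 0.26, adjusted p from limma = 0.02471) against PBS, and the C40 call was lost without either PBS library and with a pseudocount of 1 CPM. Ptprv, a receptor-type gene with no protein-coding transcript in GENCODE, was at 0.472 and 0.332 CPM in PBS cells, 4.09 and 1.16 CPM in C40 cells, and 7.62 and 9.49 CPM in I60 cells. It rose in I60 (3.32 ± 0.46, adjusted p from limma = 0.002193), while in C40 the difference was 1.62 ± 0.46 (adjusted p from limma = 0.0501) and was called higher with a pseudocount of 0.1 CPM, TMM scaling, edgeR or DESeq2, and without C40 replicate 2. Ptprn, Ptpru and Ptprv were below 1 CPM in the PBS libraries and passed the filter only through the H2O2 lines, Ptpru through I60 alone. A fall against PBS could hardly have been called for them, so nothing is read from their shared direction. The 10 others (Ptprb, Ptprc, Ptprd, Ptprh, Ptprn2, Ptpro, Ptprq, Ptprr, Ptprt and Ptprz1) were at 0.525 CPM or less in each library and were not tested. Ptprd, the type IIa relative of Ptprf and Ptprs, had 0 reads in PBS libraries, 18 in C40 libraries and 0 in I60 libraries.

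Non-receptor tyrosine phosphatases share the catalytic signature but lie inside the cell. Of 16 tested, each H2O2 line had 1 that rose (6.25%) and 3 that fell (18.75%) against PBS. Over all genes tested, 11.2% were called higher and 9.02% lower in C40, and 13.9% and 13.1% in I60. These all-gene shares also stand beside the counts of the lists in the paragraphs that follow. Ptpn3, a phosphatase with a FERM domain, fell to 31.2 and 26.7 CPM in C40 cells and to 29.7 and 37.6 CPM in I60 cells, against 73.3 and 83.8 CPM in PBS cells (-1.43 ± 0.21 and -1.22 ± 0.21, adjusted p from limma = 0.003611 and 0.00519), and the I60 call was lost without PBS replicate 2. Ptpn13, its large FERM and PDZ relative, was at 216 and 241 CPM in PBS, 134 and 163 CPM in C40, and 80.5 and 91.9 CPM in I60 libraries. It fell in I60 against PBS (-1.40 ± 0.17, adjusted p from limma = 0.00125), and its C40 call (-0.62 ± 0.17, adjusted p from limma = 0.04607) was lost under 10 of 15 other settings. Ptpn18, which acts on the receptor Erbb2, fell to 0.0831 and 0.0736 CPM in C40 cells and to 0.0375 and 0 CPM in I60 cells, against 1.31 and 1.89 CPM in PBS cells (adjusted p from limma = 0.002124 in C40 and 0.0009697 in I60). Ptpn7, best known from blood cells, rose in I60 to 2.55 and 3.24 CPM, against 0.175 and 0.133 CPM in PBS cells (adjusted p from limma = 0.0004081). The most abundant of the list, Ptpn11 (SHP2), and Ptpn1 (PTP1B) were not called in either comparison with PBS, with means of 492 and 191 CPM in PBS, 436 and 173 CPM in C40, and 337 and 164 CPM in I60 cells. For Ptpn11 in I60 against PBS the difference was -0.55 (adjusted p from limma = 0.05047), and it was called lower by DESeq2, with I60 and PBS alone in the fit, and without either C40 library.

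Ligands of the receptors were tested in 12 of 29 listed genes. Against PBS, 2 of them rose in C40 and 4 fell, while in I60 3 rose and 4 fell. Thbs1, which encodes the Ptprj ligand thrombospondin-1, was at 1348 and 1208 CPM in PBS cells, 281 and 68.9 CPM in C40 cells, and 76.5 and 99.8 CPM in I60 cells. It fell in both lines (-3.19 ± 0.57 in C40 and -3.86 ± 0.57 in I60, adjusted p from limma = 0.009044 and 0.002876), and the C40 call was lost without either PBS library. Agrn, which encodes the heparan sulfate proteoglycan agrin, fell to 110 and 136 CPM in C40 cells and to 75.9 and 89.8 CPM in I60 cells, against 314 and 384 CPM in PBS cells (adjusted p from limma = 0.002127 and 0.000324). Gpc4, a glypican, had no read in PBS cells, 0.0208 and 0.0736 CPM in C40 cells and 11.2 and 13.3 CPM in I60 cells, and was called in I60 against PBS (adjusted p from limma = 1.929e-05) and against C40 (adjusted p from limma = 0.0001398). Sdc3, a syndecan, rose in I60 to 11.5 and 15.1 CPM, against 2.36 and 2.21 CPM in PBS cells (2.30 ± 0.32, adjusted p from limma = 0.002086). The contactins on the list, which bind Ptprg, did not pass the filter.

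Partners inside the cell were tested in 8 of 12 listed genes, of which 1 rose and 2 fell in each comparison with PBS. Enah encodes the actin regulator Mena, whose fly relative Enabled binds the fly LAR protein, and rose to 36.2 and 47.7 CPM in C40 cells and to 45.8 and 42.2 CPM in I60 cells, against 2.68 and 2.74 CPM in PBS cells (3.71 ± 0.23 and 3.79 ± 0.23, adjusted p from limma = 0.0001393 and 4.433e-05). Ppfia1 encodes liprin-alpha-1, which binds the inner part of LAR, and fell to 111 and 117 CPM in C40 cells and to 107 and 98.9 CPM in I60 cells, against 186 and 195 CPM in PBS cells (adjusted p from limma = 0.0145 and 0.005222). The C40 call of Ppfia1 was lost without either PBS library and the I60 call without PBS replicate 2. Ppfibp2, a liprin-beta, fell to 0.790 and 0.331 CPM in C40 cells and to 0 and 0.0553 CPM in I60 cells, against 5.57 and 4.30 CPM in PBS cells (adjusted p from limma = 0.001818 and 0.0002342). Of 7 tested genes around Src, C40 had 1 that rose and 0 that fell against PBS, and I60 had 1 of each. Src itself was at 246 and 276 CPM in PBS cells, 241 and 473 CPM in C40 cells, and 200 and 212 CPM in I60 cells, with no call. Without C40 replicate 1 it was called in C40 against PBS and in I60 against C40. Lyn, a Src family kinase, rose in I60 to 33.0 and 37.5 CPM, against 8.33 and 9.59 CPM in PBS cells (1.92 ± 0.22, adjusted p from limma = 0.0008304). The adaptor Pag1 rose in C40 to 11.5 and 29.3 CPM, against 4.95 and 3.47 CPM in PBS cells (2.02 ± 0.45, adjusted p from limma = 0.02098). That call was lost under 6 of 15 other settings. These were the fits without either I60 or either PBS library, with no filter on low values, and with C40 and PBS alone. Grb2 fell in I60 (-0.69 ± 0.18, adjusted p from limma = 0.02624, lost without I60 replicate 2 or either PBS library).

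Known substrates at cell contacts were tested in all 8 listed genes. Against PBS, C40 had 1 that rose and 2 that fell, and I60 had 1 that rose and 5 that fell. Cdh1 fell in both lines (-2.87 ± 0.24 in C40 and -9.66 ± 0.24 in I60, adjusted p from limma = 0.0003724 and 4.502e-06). Cdh2, the N-cadherin gene, was at 81.0 and 71.4 CPM in C40 cells and 41.0 and 46.0 CPM in I60 cells, against 1 read in the PBS libraries (adjusted p from limma = 1.413e-05 and 6.63e-06). Ocln, the tight junction gene occludin, fell in both, to 2.99 and 3.86 CPM in C40 and 11.9 and 16.8 CPM in I60 cells, against 40.0 and 50.5 CPM in PBS cells (adjusted p from limma = 0.0003026 and 0.004908), and its I60 call was lost without PBS replicate 2. Ctnna1, which encodes alpha-catenin, fell in I60 (-1.10 ± 0.19, adjusted p from limma = 0.005451), a call lost without I60 replicate 1 or PBS replicate 2. Vim, the mesenchymal filament gene, was at 3055 and 2229 CPM in C40 and 3765 and 4286 CPM in I60 cells, against 40.5 and 18.8 CPM in PBS cells (adjusted p from limma = 8.417e-05 and 1.948e-05). Of 6 listed mesenchymal markers, 6 were called higher in C40 and 5 in I60 against PBS, with Fn1 not called in I60. Their summed level was 1204 and 1777 CPM in PBS cells, 8620 and 13330 CPM in C40 cells, and 5414 and 7226 CPM in I60 cells. That sum was thus highest in C40 cells, while Ptprf was lowest in I60 cells. Ptprf was low in the libraries with low Cdh1 and high Cdh2 and Vim, and the part of that shift in the Ptprf level was not tested.

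Receptor kinases that the phosphatases act on were tested in 13 of 14 listed genes. Against PBS, C40 had 4 that rose and 1 that fell, and I60 had 6 that rose and 2 that fell. Pdgfrb, a substrate of DEP-1, was at 103 and 27.1 CPM in C40 and 33.9 and 50.7 CPM in I60 cells, against 0.210 and 0.0830 CPM in PBS cells (6.38 ± 0.58 and 6.03 ± 0.58, adjusted p from limma = 0.0005263 and 0.0003837). Fgfr1 rose in C40 and I60 (2.28 ± 0.29 and 2.56 ± 0.29, adjusted p from limma = 0.002034 and 0.0007889), as did Ephb2 (2.99 ± 0.23 and 2.77 ± 0.23, adjusted p from limma = 0.0002906 and 0.000177). Erbb3 fell to 12.8 and 9.73 CPM in C40 and to 2.49 and 5.08 CPM in I60 cells, against 69.3 and 114 CPM in PBS cells (adjusted p from limma = 0.002293 and 0.0002256). Several receptors of the family are cut by proteases on the way to the surface or at it, and 10 of 13 listed protease genes were tested. Against PBS, C40 had 1 that rose and 1 that fell, and I60 had 0 that rose and 4 that fell. Pcsk6, a proprotein convertase, was at 117 and 100.0 CPM in PBS cells, 16.2 and 22.2 CPM in C40 cells, and 0.599 and 0.737 CPM in I60 cells (adjusted p from limma = 0.0008393 in C40 and 9.782e-06 in I60 against PBS). Adam10, Psen2 and Pcsk7 fell in I60 against PBS (-1.20 ± 0.25, -1.13 ± 0.32 and -0.98 ± 0.19, adjusted p from limma = 0.01201, 0.0383 and 0.008785). Each of these last 3 calls was lost without I60 replicate 1, and likewise without PBS replicate 1. In all, the Psen2 call was lost under 6 of 15 other settings, edgeR among them, and the Pcsk7 call under 4.

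The genes with the profile most like that of each member over the 6 libraries were sought among all genes tested, by the root mean square distance between centred log2(CPM + 0.5) profiles. For Ptprf the nearest were Nes and Klk7, at distances of 0.224 and 0.420, where the median gene lay at 3.91. Nes encodes the filament protein nestin and Klk7 a kallikrein protease. For Nes the mean was 400 CPM in PBS, 17.1 CPM in C40 and 0.00921 CPM in I60 cells, so that its levels lie close to those of Ptprf in each line. For Ptprg the nearest were Sord, Rgs10 and Ephb2 (0.0726, 0.130 and 0.156, with a median gene at 1.34). For Ptprs they were Adi1, Selenof and Styk1, and for Ptprj Phka1, Ttc39a and Zfpm1, all within 0.106 of the member, where the median gene lay at 0.591 for Ptprs and 0.571 for Ptprj. For Ptprk they were Pick1, Brox and Jmy, for Ptpre Med1, Trak2 and Nt5c3, and for Ptpra Rmnd5b, Pik3c3 and Dlx4. The median gene lay nearer to these last 3 members, at 0.498, 0.396 and 0.360, than to the other members.

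Genes near Ptprf on chromosome 4 were compared with it to see how far the loss of its RNA extended. Within 1 Mb on either side 25 other genes were tested. In C40 against PBS 5 of the 25 were called higher and 3 lower, beside 11.2% and 9.02% of all genes tested. In I60 against PBS 6 were called higher and 4 lower, beside 13.9% and 13.1%. The median difference of the neighbours was 0.46 in C40 and 0.33 in I60, beside -0.02 and -0.002 over all genes tested. The nearest tested genes on either side of Ptprf were Kdm4a and Hyi. Kdm4a, a histone demethylase gene, averaged 105 CPM in PBS, 200 CPM in C40 and 197 CPM in I60 cells and was not called. Hyi, a hydroxypyruvate isomerase gene, averaged 1.21 CPM in PBS, 5.23 CPM in C40 and 0.400 CPM in I60 cells, with the opposite sign to Ptprf in C40 against PBS (1.73) and the same sign in the other comparisons. It was lower in I60 than in C40 (-2.65, adjusted p from limma = 0.001588), a call kept under all 14 other settings that tested it. Its call as higher in C40 than in PBS was lost without PBS replicate 1, and that as lower in I60 than in PBS without either I60 or either PBS library. Further out, Artn, the gene of the growth factor artemin, averaged 27.8 CPM in PBS, 0.275 CPM in C40 and 0.065 CPM in I60 cells. Tmem125 averaged 11.7 CPM in PBS, 0.842 CPM in C40 and 0.037 CPM in I60 cells, and P3h1, a collagen prolyl hydroxylase gene, 1.74 CPM in PBS, 28.5 CPM in C40 and 55.7 CPM in I60 cells. These neighbours were picked for naming after their values had been seen. Along the stretch, the 4 genes called lower in I60 lay among others called higher.

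**Figure D4:**
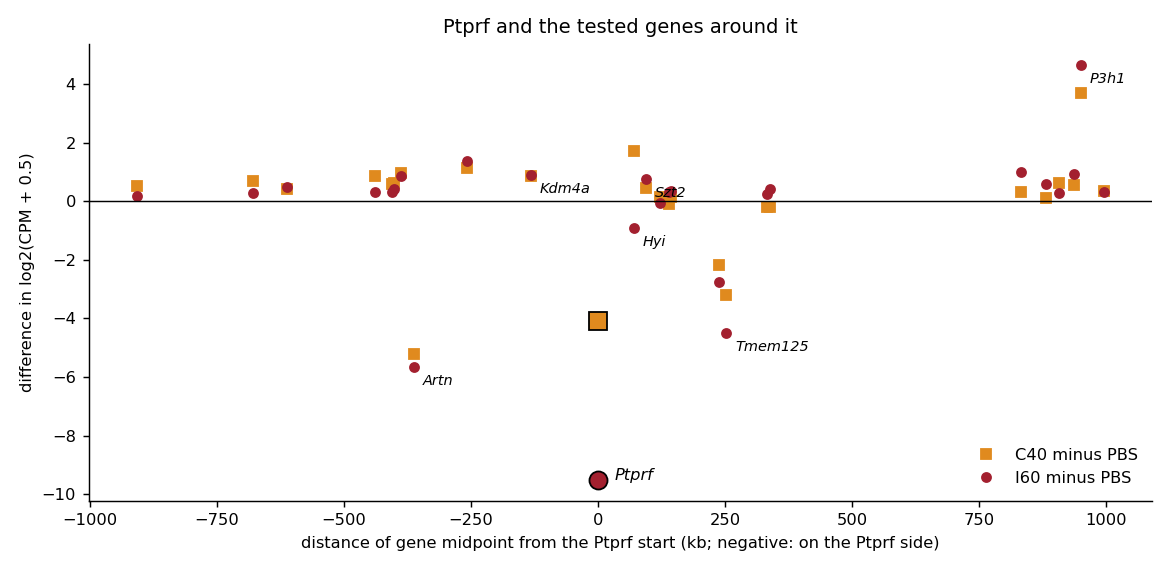
Differences from PBS on the log2(CPM + 0.5) scale (vertical axis) for Ptprf (large symbols) and the 25 tested genes within 1 Mb, by distance of the gene midpoint from the Ptprf start in kb (horizontal axis); squares are C40 and circles are I60. Most neighbours lie between 0 and 1.5, while Artn, Tmem125 and 2610528J11Rik lie below -2 in both lines and P3h1 above 3.

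The promoter windows of Ptprf and Ptprg are shown because these genes had the largest differences from PBS in the set, in opposite directions. The lines give the 250 bases before a RefSeq start of each gene on GRCm38.p6, with CG dinucleotides in capitals. These starts lie inside the gene spans given above, so the last bases of each stretch fall within the span. The stretches are chr4:118291398-118291647 on the minus strand for Ptprf and chr14:11553303-11553552 on the plus strand for Ptprg.
Ptprf: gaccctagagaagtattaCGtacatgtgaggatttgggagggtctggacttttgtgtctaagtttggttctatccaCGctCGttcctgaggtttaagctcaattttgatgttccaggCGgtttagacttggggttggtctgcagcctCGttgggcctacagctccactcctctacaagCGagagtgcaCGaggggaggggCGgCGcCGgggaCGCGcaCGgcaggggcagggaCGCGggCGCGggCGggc
Ptprg: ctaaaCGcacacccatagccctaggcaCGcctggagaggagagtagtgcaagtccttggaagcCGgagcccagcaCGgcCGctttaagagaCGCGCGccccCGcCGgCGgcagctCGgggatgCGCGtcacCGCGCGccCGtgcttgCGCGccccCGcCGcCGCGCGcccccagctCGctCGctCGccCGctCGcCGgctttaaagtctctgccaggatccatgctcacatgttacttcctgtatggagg
They hold 18 and 31 CG dinucleotides. In windows that also take in 50 bases after the start, Ptprf holds 30 and Ptprg 36, where the median of 32851 mouse windows is 7. That count for Ptprg is for the start shown. Its other RefSeq window, at chr14:12189693-12189992, holds 7. The E-box CACCTG, read on both strands and known as a site of EMT repressors such as Snail and Zeb, is in 20.2% of all these windows. Among the members it was found in the window of Ptprk and in a pair of the 3 windows of Ptpre, and in none for the others. The core TGACNNNGC, known as the site of NRF2 and read on both strands, is in 12.4% of all windows and was found for Ptpra, Ptprk and Ptprs. A match is a description of letters, and no binding was measured.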

How the data were processed

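Per the submitters' processing notes, reads were aligned with STAR to mm10. The sources used here give neither the STAR version nor the counting program, annotation or strand setting. The authors deposited CPM values per Entrez gene, scaled to each library's total. All values came out as whole reads within a tolerance of 0.01 (100% in each library), and reads recovered so served edgeR 4.0.16, DESeq2 1.42.0 and the exact binomial intervals, which cover counting error only. Symbols were taken from RefSeq (24374 IDs matched) and 7 more from GENCODE vM21.

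limma 3.58.1 (R 4.3.3, intensity trend) was fitted on log2(CPM + 0.5) over 3 groups with 3 residual degrees of freedom. Genes with 1 CPM or more in 2 or more libraries were tested, two-sided, with Benjamini-Hochberg adjustment over all 11524. The code was tested on simulated data. Identity was taken from translated transcripts aligned with BLOSUM62. The alternatives were other pseudocounts, filters, scalings and tools, fits of pairs of groups, a replicate block and each library left out. Members and lists were chosen with earlier results of these data known. Named genes were all members, tested relatives, up to 4 called genes per list by size of difference, Cdh1, Vim and Src, and the 3 nearest profiles of each member; 1 of these profiles and 1 signature sequence are not reported here. No protein-coding gene overlaps a member. Genes on the opposite strand overlap all members but Ptprf and Ptprs, and their reads cannot be told apart without the strand setting. How reads that match several genes were treated is not given.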

Additional observations from a re-analysis of the deposited data

Results flagged for a closer look

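The genes below differed from PBS by unlike amounts in I60 and in C40, by limma's comparison of I60 with C40 over all genes. For the receptor phosphatases themselves this is a description. The I60 minus C40 differences, on the log2(CPM + 0.5) scale, were -5.43 for Ptprf, 1.10 for Ptprj and -0.81 for Ptprs. Ptprn was higher in I60 than in C40 by 1.56, a call lost without either I60 library. Among other phosphatases the difference was 1.38 for Ptpn7 (lost without I60 replicate 2) and -0.78 for Ptpn13 (lost under 7 of 15 other settings). Among ligands it was 4.54 for Gpc4, which has no read in PBS, and 1.56 for Sdc3, lost without either I60 library, without either PBS library or without C40 replicate 2. Of the 12 ligands tested, 2 were thus called higher in I60 than in C40, and 3 were called lower: Sdc1, Gpc1 and Lrfn4. The calls of Sdc1 and Lrfn4 were lost under 7 of 15 other settings, and that of Gpc1 under 5. Axl, 1 of 13 receptor kinases tested, was also called lower, lost under 3 of 15 settings. The difference was 1.43 for Lyn, lost without either I60 library. Cdh1 was at -6.79, Pcsk6 at -4.06 and Ocln at 1.90, the last lost without I60 replicate 2. For Ocln, C40 cells were therefore further from PBS than I60 cells. No explanation was tested for any of these.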

How the results depend on the processing

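The calls of Ptprf in all comparisons, of Ptprg in both lines against PBS and of Ptprs in I60 against PBS held under all 15 alternatives, and no called member changed sign. Medians over all genes moved by less than 0.04 under TMM, edgeR and DESeq2 scaling. With DESeq2, 2 members were called lower in C40 than in PBS and 2 higher in I60 than in PBS, and 1064 genes were called lower in I60 than in C40. With only the groups compared in the fit, 2 members were called higher in I60 than in PBS, 0 higher and 1 lower in I60 than in C40, and 418 genes lower in I60 than in C40. Without each library in turn, genes called higher in C40 than in PBS numbered 549 to 1717, and lower 425 to 1750. For I60 against PBS the ranges were 756 to 2120 higher and 740 to 2070 lower, and for I60 against C40 140 to 832 higher and 249 to 937 lower. Members called higher in I60 numbered 1 to 2 against PBS and 0 to 1 against C40, and those called lower 1 to 2 in C40 against PBS and 1 to 2 in I60 against C40. Libraries with the same replicate number deviated together with correlations of 0.438 (I60 and C40), 0.105 (I60 and PBS) and 0.154 (C40 and PBS). With 2 numbers this does not show pairing. With the replicate block, 3 members were called lower in I60 than in PBS (Ptprk added), and for C40 against PBS it called 1552 genes higher and 1301 lower. Of the counts for the other lists, 143 moved by over 1.5 times and 577 did not. Differences of Ptprf in I60 depend on 4 reads.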
